A study of Homo sapiens with 2 samples.

Results

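The genes described here encode catalase and 9 other antioxidant enzymes, namely CAT, SOD1, SOD2, GPX1, GPX4, PRDX1, PRDX2, PRDX3, PRDX4 and TXNRD1. They were chosen by symbol, and catalase was included because its large difference between the lines was already known, so its values are a description and no test of it. All 10 were found as 1 row each among the 25436 gene symbols analysed, and all 10 were counted, that is, their mean of HuES53 and HuES64 reached 1 FPKM, as for 13790 genes in all. FPKM divides the fragments of a gene by its transcript length and by the library's mapped fragments, so levels of different genes can be set side by side. The values come from HuES53 and HuES64, 2 lines of human embryonic stem cells. Both are diploid, were derived from embryos made by in vitro fertilization, were undifferentiated at a passage under 20, and serve as controls in a study of haploid stem cells. The labels give no treatment for either. Each is represented by 1 library of polyadenylated RNA, so differences between HuES53 and HuES64 have neither an error nor a p-value and describe these 2 libraries.

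Cells that use oxygen make superoxide, mostly in mitochondria, and the enzymes described here remove it in steps. Superoxide dismutases turn superoxide into hydrogen peroxide, which is then broken down by catalase in peroxisomes, by glutathione peroxidases at the expense of glutathione, and by peroxiredoxins at the expense of thioredoxin. Thioredoxin reductase restores thioredoxin with electrons from NADPH. Pluripotent stem cells are known for few and immature mitochondria, and catalase is among the genes known to vary between pluripotent lines.

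CAT is the gene with the largest difference in the set, so the reference sequence before its start is shown first. It is taken from RefSeq (GRCh38.p14, chr11:34438684-34438933, plus strand) and holds the 250 bases upstream of the annotated start. Capitals mark matches to CCAAT, on either strand (written ATTGG when on the other strand), and to the GC box GGGCGG.
CAT: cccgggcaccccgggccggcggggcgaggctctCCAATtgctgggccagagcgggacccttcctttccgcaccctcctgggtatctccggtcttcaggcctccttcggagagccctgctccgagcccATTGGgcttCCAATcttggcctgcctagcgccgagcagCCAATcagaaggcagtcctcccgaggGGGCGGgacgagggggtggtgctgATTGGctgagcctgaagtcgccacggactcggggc
The window holds 5 CCAAT matches and 1 GC box. At least 5 CCAAT matches were found in 0.319% of the 35116 promoter windows of the same length in the RefSeq table, and at least 1 in 32.0%. The window is 68.8% GC and holds 18 CpG dinucleotides, against a median of 11 over all windows. Of all windows, 65.4% held at most 18. The CAT window holds no TATAAA match. Of the 10 genes, 8 had promoter windows in that table, some of them several. All 8 held a GC box in at least 1 window, as did 46.2% of the 27305 symbols in the table, expressed here or not. A core of the antioxidant response element (TGACNNNGC, both strands) was found in the windows of TXNRD1 and of no other of the 8, against 13.2% of those symbols. A match is a description of letters, not of a factor that binds there.

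GPX1, GPX4 and TXNRD1 are selenoproteins, and in the levels given below they do not go the same way between the lines. Each carries selenocysteine at its catalytic centre, encoded by a TGA codon that would otherwise end translation. The annotated codon of each, in capitals, is shown with 12 transcript bases on each side, as read from GENCODE release 29 (GRCh38). In TXNRD1 the ggt after the codon is followed by taa, an in-frame stop codon, so the bases past it are not coding. The codon of GPX1 lies in exon 1 of 2 (chr3:49358132-49358134, minus strand), that of GPX4 in exon 3 of 7 (chr19:1105403-1105405, plus strand) and that of TXNRD1 in exon 15 of 15 (chr12:104348413-104348415, plus strand).
GPX1: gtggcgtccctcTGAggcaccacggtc
GPX4: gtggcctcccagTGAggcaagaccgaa
TXNRD1: caggctggctgcTGAggttaagcccca

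CAT, the peroxisomal enzyme that splits hydrogen peroxide into water and oxygen, stood at 11.9 FPKM in HuES53 and 2.27 FPKM in HuES64. It was the lowest of the 10 genes in both lines, yet the only one at least 2-fold different. The difference in log2(FPKM + 1), HuES53 minus HuES64, was 1.98, or 3.94-fold, and the plain ratio of the FPKM values was 5.23. The pseudocount of 1 FPKM makes the fold of a gene this low smaller than its plain ratio, and every other fold given is on the log2(FPKM + 1) scale too. The gene lies on chromosome 11, from 34460472 to 34493607, in the coordinates of the deposited table, whose genome build is not given in the sources used here. In bulk RNA, fewer cells that express a gene and less RNA per cell cannot be told apart.

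Among all genes counted, 3.86% were at least 2-fold different, 2.15% with the higher value in HuES53 and 1.7% with the higher value in HuES64. CAT ranked 62nd of 13790 from the HuES53 end of the differences, and 111th by size in either direction. Among the 2470 genes that average 5 to 10 FPKM, where CAT lies, 4.62% differed at least 2-fold and 1.38% at least as much as CAT. By level alone CAT ranked 6621st of all symbols in HuES53 and 11731st in HuES64. An estimate of depth from the steps of low values puts the fragments behind CAT at about 493 in HuES53 and 77 in HuES64. These counts would give the plain ratio an exact 95% binomial interval of 4.11 to 6.75, which covers counting error only and rests on an assumed fragment length. The counts use the full transcript length, so they run somewhat high and the interval somewhat narrow.

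Of the genes on either side of CAT, NAT10, ABTB2 and APIP were counted and had small differences. Their loci lie 292, 80.9 and 410 kb from that of CAT. LOC100507128, ELF5 and EHF were near 0 in both lines, so their differences could not be large. NAT10, which encodes an RNA acetyltransferase, stood at 29.1 FPKM in HuES53 and 27.7 FPKM in HuES64, and ABTB2 at 4.77 and 3.79 FPKM. LOC100507128, which lies within the ABTB2 locus, stood at 0.287 and 0.263 FPKM. On the other side ELF5, an epithelial transcription factor gene whose locus begins 6.74 kb past the end of that of CAT, had 0.0254 FPKM in HuES53, while HuES64 listed it at 0. EHF, of the same factor family, stood at 0.0547 and 0.0502 FPKM. APIP, an enzyme gene of methionine salvage, stood at 35.3 and 34.1 FPKM. Of these 6 neighbours, ABTB2 had the largest difference, 0.27 in log2(FPKM + 1).

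**Figure D1:**
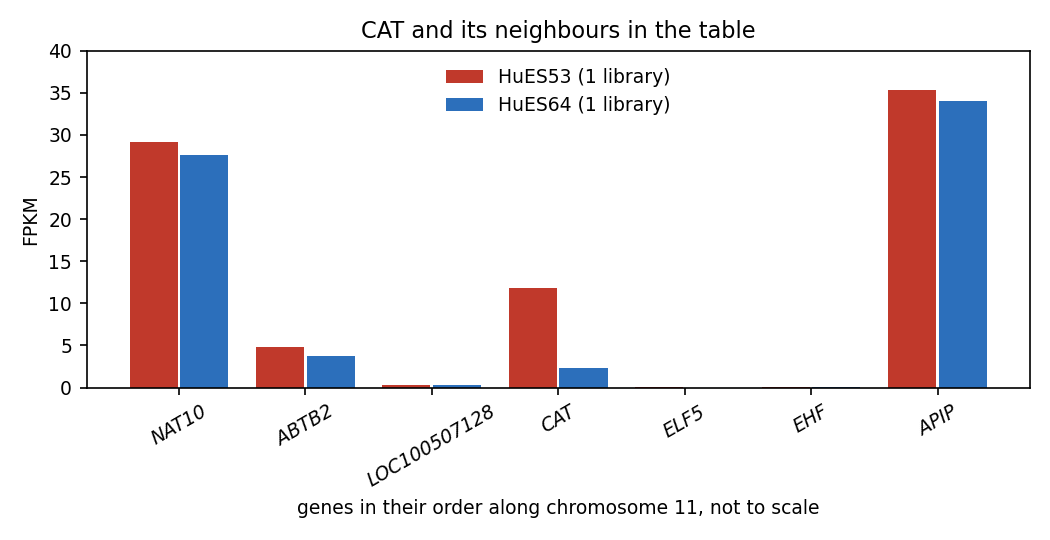
FPKM of CAT and of the 3 genes on each side of it in the table, in HuES53 (red) and HuES64 (blue), 1 library each. CAT stands at 11.9 FPKM in HuES53 and 2.27 FPKM in HuES64, while each neighbour has bars of nearly equal height, and ELF5 and EHF are too low to show.

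The 3 genes whose values lay closest to those of CAT in both lines, by Euclidean distance in log2(FPKM + 1), were TRY6, NPTX1 and ZNF826P. TRY6 stood at 10.4 FPKM in HuES53 and 1.89 FPKM in HuES64, at a distance of 0.25. NPTX1, which encodes a neuronal pentraxin, stood at 11.4 and 1.74 FPKM, at a distance of 0.26. ZNF826P stood at 14.6 and 2.59 FPKM, at a distance of 0.31. Likeness over 2 libraries says only that the pairs of values are close.

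The superoxide dismutase genes differed little between the lines. SOD1, the copper and zinc enzyme of the cytosol, stood at 244 FPKM in HuES53 and 266 FPKM in HuES64, a difference of -0.13. SOD2, the manganese enzyme of mitochondria, stood at 34.7 and 31.4 FPKM, a difference of 0.14. SOD1 was thus 7.02 times as high as SOD2 in HuES53 and 8.48 times in HuES64. With TPM scaling the difference of SOD1 was 0.12. That of SOD2 was -0.23 after the GC and length trend was subtracted by the longest transcript.

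Both glutathione peroxidase genes were lower in HuES53. GPX1, the abundant enzyme of cytosol and mitochondria that reduces hydrogen peroxide, stood at 257 FPKM in HuES53 and 402 FPKM in HuES64, which is 1.56-fold higher in HuES64. GPX4, which reduces lipid hydroperoxides in membranes and thereby guards cells against ferroptosis, stood at 327 and 545 FPKM, 1.66-fold higher in HuES64. GPX4 was the second highest of the 10 genes in both lines, and 27.6 times as high as CAT in HuES53, against 240 times in HuES64.

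The peroxiredoxin genes split. PRDX1, a cytosolic peroxiredoxin and the highest of the 10 genes, stood at 1400 FPKM in HuES53 and 1395 FPKM in HuES64. It made up 46.0% of the summed FPKM of the 10 genes in HuES53 and 38.3% in HuES64, and ranked 54th and 76th among all symbols. PRDX2, the other abundant cytosolic member, stood at 255 FPKM in HuES53 and 423 FPKM in HuES64, 1.66-fold higher in HuES64. PRDX3, the mitochondrial member, stood at 238 and 217 FPKM, a difference of 0.13. PRDX4, the member of the endoplasmic reticulum, stood at 222 and 318 FPKM, 1.43-fold higher in HuES64. PRDX1 and PRDX3 were thus nearly level, while PRDX2 and PRDX4 were lower in HuES53.

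TXNRD1, the cytosolic thioredoxin reductase, stood at 52.4 FPKM in HuES53 and 39.1 FPKM in HuES64, 1.33-fold higher in HuES53. After CAT it had the second largest difference in that direction, at 0.41.

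**Figure D2:**
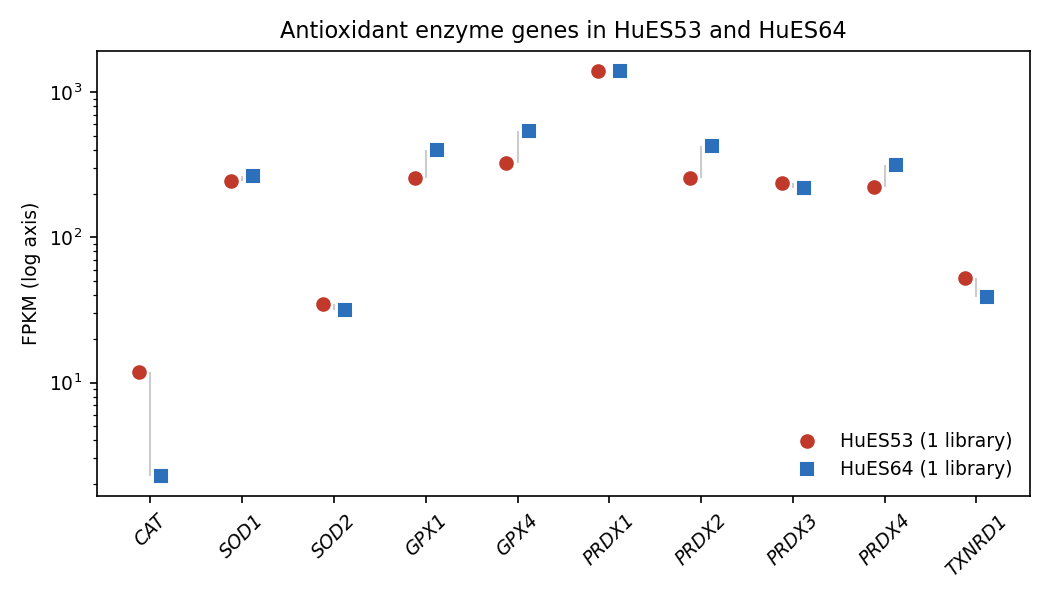
FPKM on a log axis of each of the 10 antioxidant enzyme genes in HuES53 (red circles) and HuES64 (blue squares), 1 library per line. CAT is lowest in both lines, with the widest gap (11.9 and 2.27 FPKM), and PRDX1 is highest and level (1400 and 1395 FPKM).

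In order of level, HuES53 ran from PRDX1 through GPX4, GPX1, PRDX2, SOD1, PRDX3, PRDX4, TXNRD1 and SOD2 to CAT. In HuES64 the order was PRDX1, GPX4, PRDX2, GPX1, PRDX4, SOD1, PRDX3, TXNRD1, SOD2 and CAT. In HuES53 the 5 genes from GPX1 to PRDX4 lay between 257 and 222 FPKM, and with 1 library per line it is not known whether neighbours in that stretch differ beyond their spread. The range from PRDX1 to CAT was 118 times in HuES53 and 616 times in HuES64. Summed over the 10 genes, the FPKM came to 3042 in HuES53 and 3639 in HuES64. The FPKM of all symbols also summed higher in HuES64, to 713421 against 601128 in HuES53. The higher sum of the 10 genes in HuES64 is therefore no result about these genes.

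Of the 10 genes, 5 were higher in HuES53 and 5 in HuES64, against 52.5% and 47.5% of all genes counted. The median difference was -0.06, against 0.03 over all genes counted. Without CAT the 9 others ranged from -0.73 to 0.41. None was at least 2-fold higher in HuES64. Of the 7 antioxidant enzyme genes that average 100 FPKM or more, none was at least 1.2-fold higher in HuES53, while GPX1, GPX4, PRDX2 and PRDX4 were that much higher in HuES64. Among all 1061 genes at that level, 7.73% exceeded 1.2-fold toward HuES53 and 48% toward HuES64, so 4 of 7 is close to the share of other highly expressed genes and is no result about these 4.

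The difference between the lines moved with GC content over all genes, when these were split by GC into 10 groups of equal size. The median was 0.30 in the group lowest in GC and -0.31 in the highest. GPX1 (62.6% GC) and GPX4 (62.8%) lie in the highest group, and PRDX2 (58.3%) in group 8, whose median was -0.14. CAT (45.2%) and TXNRD1 (46.6%) lie in group 4, with a median of 0.19. After subtraction of this trend and of that with transcript length, the difference was -0.32 for GPX1, -0.41 for GPX4, -0.57 for PRDX2, -0.50 for PRDX4 and 0.25 for TXNRD1, and that of CAT was 1.81. With the longest transcript of each gene in place of the median transcript, these differences were -0.15, -0.24, -0.41, -0.18 and 0.25, and that of CAT was 1.97.

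**Figure D3:**
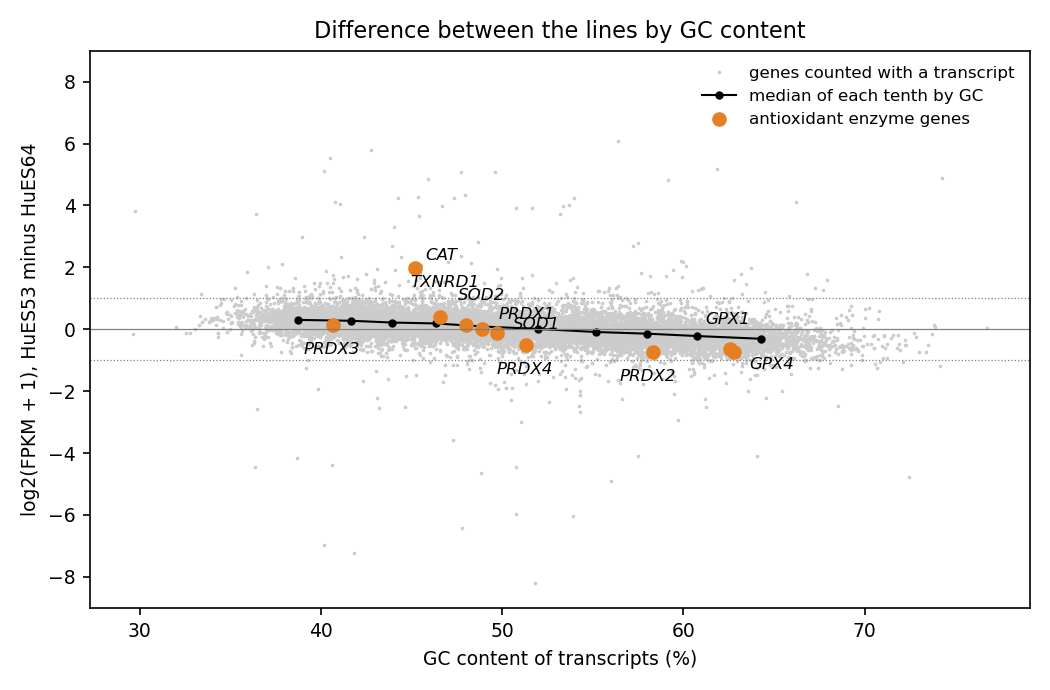
Difference in log2(FPKM + 1), HuES53 minus HuES64, against the GC content of each gene's transcripts in percent, for genes counted with a matched transcript (grey), the median of each of 10 groups of genes by GC (black line) and the 10 antioxidant enzyme genes (orange). Dotted lines mark 2-fold. GPX1 and GPX4 lie at the GC-rich end, below 0 as the median there is, and CAT lies far above the line at 1.98.

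The genes that work with these enzymes were followed in 11 lists, whose medians are set against the 0.03 of all genes counted. Direction counts in each list are to be read beside the 52.5% of all genes counted toward HuES53 and 47.5% toward HuES64. Past 1.2-fold, genes averaging 100 FPKM or more leaned toward HuES64 (48%, against 7.73% toward HuES53). Neither the direction counts nor the medians of the lists were compared with genes of the same level, so they describe the lists only. Counts past 2-fold in each list are to be read beside the 3.86% of all genes counted. They are on the log2(FPKM + 1) scale, which makes the folds of genes with low FPKM smaller. In lists this short, a count of none is close to that share and is no result about the list. Other members of the thioredoxin system were mostly lower in HuES53, 6 of 8, with a median difference of -0.39. TXN, thioredoxin itself, stood at 814 FPKM in HuES53 and 901 FPKM in HuES64, and PRDX6, a peroxiredoxin with a single catalytic cysteine, at 640 and 596 FPKM. TXNRD2, the mitochondrial thioredoxin reductase, was the only one at least 2-fold different, at 7.94 FPKM in HuES53 and 24.2 FPKM in HuES64, 2.82-fold higher in HuES64. Its locus overlaps 1 other gene, and the table cannot separate fragments shared by overlapping genes. TXNRD3, a further reductase, stood at 2.62 and 3.86 FPKM. TXNRD1 was thus higher in HuES53, and TXNRD2 and TXNRD3 in HuES64.

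Among the other glutathione peroxidase genes, the extracellular dismutase SOD3 and the copper chaperone CCS, 5 of 6 genes counted were lower in HuES53, with a median of -0.50. CCS, which delivers copper to SOD1, stood at 25.4 FPKM in HuES53 and 54.9 FPKM in HuES64, 2.12-fold higher in HuES64, while SOD1 itself was nearly level. After subtraction of the GC and length trend CCS differed by -0.78, under 2-fold. GPX8, a membrane protein of the endoplasmic reticulum, stood at 32.8 FPKM in HuES53 and 27.9 FPKM in HuES64.

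Genes of glutathione synthesis and use were evenly split, 11 higher in HuES53 and 11 in HuES64, with a median of -0.05 and none at least 2-fold different. GSTP1, a glutathione transferase, stood at 1214 FPKM in HuES53 and 1837 FPKM in HuES64. SLC3A2, the heavy chain of the cystine transporter, stood at 335 and 332 FPKM. SLC7A11, its light chain, had the largest difference of the list, at 5.29 and 2.48 FPKM, 1.81-fold higher in HuES53. Its locus overlaps LOC641364.

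NRF2, encoded by NFE2L2, is the main transcription factor of the antioxidant response, and KEAP1 holds it in check. Of its 9 regulators, counting NFE2L2 itself, 5 were higher in HuES53, with a median of 0.08 and none at least 2-fold different. NFE2L1, a relative of NRF2, stood at 94.6 FPKM in HuES53 and 78.8 FPKM in HuES64, and the KEAP1-binding adaptor SQSTM1 at 58.1 and 65.9 FPKM. BACH1, a repressor of NRF2 targets, stood at 9.78 and 5.85 FPKM, 1.57-fold higher in HuES53. Of 18 other NRF2 targets counted, 11 were higher in HuES53 and 7 in HuES64, with a median of 0.13 and none at least 2-fold different. That median was -0.10 among targets averaging 5 FPKM or more. The ferritin chains FTL (2082 and 2580 FPKM) and FTH1 (954 and 1054 FPKM) were highest, and AKR1C2 (4.06 and 1.57 FPKM), a close copy of other AKR1C genes, differed most, at 1.97-fold higher in HuES53.

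NADPH supplies the electrons for both the glutathione and the thioredoxin branch. Of the 15 genes of NADPH supply, 7 were higher in HuES53 and 8 in HuES64, with a median of -0.02. TKT and TALDO1, of the pentose phosphate pathway, stood at 735 and 266 FPKM in HuES53, against 729 and 297 FPKM in HuES64. ME3, a mitochondrial malic enzyme, was the only one at least 2-fold different, at 1.04 FPKM in HuES53 and 3.56 FPKM in HuES64, 2.23-fold higher in HuES64. After subtraction of the GC and length trend ME3 differed by -0.92, under 2-fold.

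Catalase works in peroxisomes, and the differences of the other peroxisomal genes counted ran from -0.71 (EPHX2) to 0.59 (ACOX3). Of the 16 genes of peroxisome assembly, 5 were higher in HuES53 and 11 in HuES64, with a median of -0.11. PEX19, a chaperone for peroxisomal membrane proteins, stood at 29.8 FPKM in HuES53 and 32.3 FPKM in HuES64, PEX14, of the import complex, at 20.0 and 24.8 FPKM, and PEX11G at 3.43 and 6.17 FPKM. Of the 19 other peroxisomal enzymes and transporters counted, 12 were higher in HuES53 and 7 in HuES64, with a median of 0.17. HSD17B4, of peroxisomal beta-oxidation, stood at 131 and 100 FPKM, SCP2, a sterol carrier and thiolase, at 71.2 and 53.3 FPKM, and EPHX2, an epoxide hydrolase, at 8.10 and 13.9 FPKM. None of these 35 genes was at least 2-fold different, a count to be read beside the 3.86% of all genes counted.

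Oxidases that make superoxide or hydrogen peroxide were mostly low, and 10 of 20 reached a mean of 1 FPKM. CYBA, a subunit of NADPH oxidases, stood at 114 FPKM in HuES53 and 193 FPKM in HuES64. Of the catalytic subunits, NOX4 stood at 1.23 and 0.742 FPKM and DUOX1 at 0.694 and 1.32 FPKM. NOX1, DUOX2 and CYBB were lower in both lines, and NOX3 and NOX5 were listed at 0 in both. ERO1L, which oxidises disulphide isomerase in the endoplasmic reticulum, stood at 15.0 and 11.1 FPKM, and its relative ERO1LB at 2.11 and 0.844 FPKM. The median of the list was -0.10, and none was at least 2-fold different.

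The list for the machinery that inserts selenocysteine, on which GPX1, GPX4 and TXNRD1 depend, also holds the receptor gene LRP8. Of its 8 genes, LRP8 included, 5 were higher in HuES53, with a median of 0.02 and none at least 2-fold different. SEPHS1 and SEPHS2, which encode selenophosphate synthetases, stood at 216 and 47.5 FPKM in HuES53, against 175 and 39.8 FPKM in HuES64, and PSTK, a kinase of the selenocysteine tRNA, at 3.23 and 4.69 FPKM. Of 13 other selenoprotein genes counted, 5 were higher in HuES53 and 8 in HuES64, with a median of -0.11. SEPW1 stood at 365 and 466 FPKM and C11orf31 at 87.7 and 156 FPKM. DIO3, the enzyme that inactivates thyroid hormone, was the only one at least 2-fold different, at 18.7 FPKM in HuES53 and 7.23 FPKM in HuES64, 2.40-fold higher in HuES53.

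**Figure D4:**
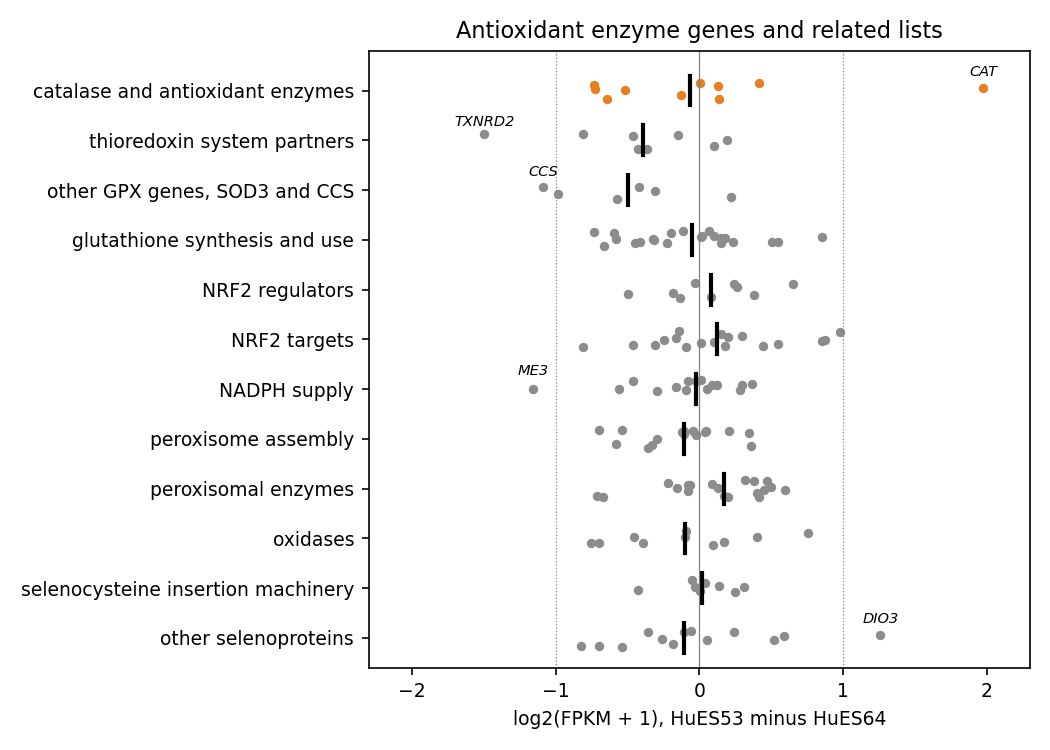
Difference in log2(FPKM + 1), HuES53 minus HuES64, of each gene counted, for the 10 antioxidant enzyme genes (orange) and 11 related lists (grey), with black bars at the medians and dotted lines at 2-fold. CAT, TXNRD2, CCS, ME3 and DIO3 lie beyond 2-fold, and list medians run from -0.50 to 0.17.

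Both lines carried the markers of pluripotent cells, with all 8 listed genes at 57.0 FPKM or more. The 8 erythroid and the 8 hepatocyte markers, of cell types rich in catalase, summed to 6.06 and 8.95 FPKM in HuES53, against 7.05 and 7.65 FPKM in HuES64. Their single highest members stood at 2.61 and 4.58 FPKM in HuES53, against 3.62 and 5.60 FPKM in HuES64, and ALB had 0.0261 FPKM in HuES53, while HuES64 listed it at 0. The highest hepatocyte marker was TTR in both lines. TTR and FGA (0.825 and 0.833 FPKM) were higher in HuES64, and the other hepatocyte markers were higher in HuES53. Hepatocyte markers at 1 FPKM or more numbered 3 in HuES53 and 1 in HuES64, with medians of 0.684 and 0.244 FPKM over all 8. Erythroid markers at that level numbered 2 in each line. Endoderm markers, all 8 at 1 FPKM or more in both lines, summed to 118 FPKM in HuES53 and 67.6 FPKM in HuES64. Of these 8, 7 were higher in HuES53, against 52.5% of all genes counted. More of the pluripotent and neural markers were also higher in HuES53, and more of the erythroid and fibroblast markers in HuES64. Among the endoderm markers the directions were not uniform. SOX17 went the other way, at 6.89 and 10.6 FPKM. CXCR4 gave 68.1 FPKM of that sum in HuES53 and 26.3 FPKM in HuES64, and without it the sums were 49.9 and 41.3 FPKM. The 8 fibroblast markers summed to 322 and 351 FPKM, with 6 of 8 at 1 FPKM or more in each line. The 8 neural markers summed to 3.53 and 2.26 FPKM. The part of these cell types in the level of CAT was not tested.

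GPX1, PRDX1 and TXNRD1 each overlap 1 other gene in the table (LOC100289130, MMACHC and EID3). The reference annotation names 4 pseudogenes after PRDX2, 4 after PRDX3, 3 after SOD1, 2 after GPX1, and 1 each after SOD2, PRDX1 and PRDX4, so fragments of these genes may be shared with copies. It names none after CAT, GPX4 or TXNRD1, and CAT overlaps no other gene in the table.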

How the data were processed

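Polyadenylated RNA of HuES53 and HuES64 was sequenced from 1 library per line after Illumina TruSeq preparation, per the labels' protocols. The authors deposited 1 table of FPKM values with a gene symbol and a locus per row. Per the submitters' processing notes, TopHat2 2.0.4 and Cufflinks 2.0.2 were used, in roles not stated. No source used here gives the build, annotation or strand setting.

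Chromosome Y (136 rows) was not analysed, and rows of 21 repeated symbols were summed. Differences were taken in log2(FPKM + 1), HuES53 minus HuES64, and genes averaging 1 FPKM or more were counted. With 1 library per line no test was made. Of 1067 microRNA loci, 1035 had the hairpin length of RefSeq when the start counts from 0, so coordinates are printed counting from 1.

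Depth was fitted to olfactory receptor genes under 1100 bases with under 6 fragments, assuming fragments of 200 bases. In HuES53 17 of 20 values, and in HuES64 9 of 11, fell within 3% of a whole number, at 18.1 and 14.8 fragments per FPKM and kb. Such fitted shares are no separate evidence for the depth. Fragments per gene use the full length of its median coding transcript, while the fit took locus length less the fragment length. The fragments per gene therefore run somewhat high.

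GC content and length came from GENCODE release 29, matched by symbol for 11916 genes (86.4%). Bin medians over 20 bins of each were subtracted in 5 rounds, a step checked on simulated data. Markers, lists and members were chosen with earlier results of these data known. Named from each list are the 2 highest genes and those at least 2-fold different, or else the gene with the largest difference. For CAT they are the 3 neighbours on each side and the 3 closest genes. TXNRD3, ACOX3, NOX1, NOX3, NOX4, NOX5, CYBB, DUOX1, DUOX2, LRP8, ALB, TTR, FGA, SOX17 and CXCR4 were named after their values were seen. NADK2 was matched by its synonym NADKD1. Python 3.11.15, pandas 2.3.3, NumPy 2.4.6 and SciPy 1.17.1 were used.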

Additional observations from a re-analysis of the deposited data

How the results depend on the processing

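The 2-fold call of CAT held under all 8 alternatives listed beforehand and under both removals of the GC and length trend, which were chosen after seeing the data, with differences from 1.81 to 2.34. No other antioxidant enzyme gene passed 2-fold under any of them. Each of the 10 genes has 1 row and averages above 5 FPKM. The settings for repeated symbols and for the minimum mean thus could not change its difference, and a smaller pseudocount could only widen it. For CAT, only changes of scaling and the removals of the trend could have lowered the difference. GPX1, GPX4, PRDX2, PRDX4 and TXNRD1 kept their direction under all 10, while the small differences of SOD1 (-0.16 to 0.12), SOD2 (-0.23 to 0.38), PRDX1 (-0.09 to 0.27) and PRDX3 (-0.10 to 0.38) changed sign. The median of the 10 genes, -0.06 as reported, was 0.19 with TPM scaling and -0.13 without the 3 genes that overlap others. TPM scaling also moved the median of all genes to 0.25, against 0.03, and relative to it the 10 genes stood at -0.07, against -0.09. With it the genes past 2-fold numbered 774 toward HuES53 and 200 toward HuES64 (79.5% toward HuES53), against 297 and 235 (55.8%) as reported. A pseudocount of 0.1 FPKM gave 585 and 405, and a minimum mean of 5 FPKM gave 161 and 159. The counts past 2-fold in the lists were not repeated under these settings. In plain FPKM, SLC7A11, AKR1C2 and ERO1LB, for example, differ more than 2-fold, so these counts depend on the pseudocount. Over the 8 alternatives, 8 of 88 list medians changed sign or reached 0. With TPM scaling those of glutathione (0.13), NADPH supply (0.20), peroxisome assembly (0.13), the oxidases (0.13) and other selenoproteins (0.14) turned positive, below the 0.25 of all genes. The other changes were NRF2 targets at a minimum mean of 5 FPKM (-0.10), the selenocysteine machinery with the median of ratios (-0.0046) and the oxidases without a filter (0). Symbols given by more than 1 row were no antioxidant enzyme gene. No paired analysis was possible because each line has 1 library and no replicate numbers. Depth limits low genes most, and CAT in HuES64 rests on about 77 fragments by the fitted estimate.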
